A study of Mus musculus with 6 samples.

Results

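The CCAAT/enhancer-binding protein (C/EBP) genes Cebpa, Cebpb and Cebpd, the nuclear receptor gene Pparg and 6 genes of fatty acid uptake, storage and release (Lpl, Cd36, Fabp4, Plin2, Lpin1 and Pnpla2) were read in C2C12 myotubes. C2C12 is a wild-type mouse muscle cell line whose myoblasts fuse into multinucleated myotubes when serum is reduced. The members were the rows of the deposited table that carry these 10 gene names, out of 46983 genes. All the cultures were differentiated in horse serum before treatment, and poly(A) RNA was sequenced after 24 h of treatment. The tested agent was corticosterone (1e-07 M), which is the chief glucocorticoid of mice and rats, and the control was ethanol, its vehicle, added at 1 µL/mL. Each treatment had 3 libraries, from independent biological replicates per the series' design text, all of the same cell line. Here COR1, COR2 and COR3 are the libraries labelled corticosterone replicates 1, 2 and 3, and VEH1, VEH2 and VEH3 those labelled vehicle. The question of the study was which genes differ between the treatments.

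C/EBP proteins are leucine zipper transcription factors that act in fat, liver and myeloid cells. In preadipocytes, Cebpb and Cebpd are induced early by hormones, glucocorticoid among them, and precede Cebpa and Pparg, which then drive the genes of fat storage. In muscle, the same storage enzymes take up fatty acids from lipoproteins, hold them in lipid droplets as triglyceride and release them for oxidation, and Cebpb is known as a brake on myogenic differentiation. Levels below are CPM, counts divided by library size, with the sizes adjusted by the trimmed mean of M-values (TMM) method.

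Total counts were 25826081 to 29928653 in the libraries labelled corticosterone and 23877583 to 28496898 in those labelled vehicle. Genes that glucocorticoids induce went against the labels in COR2 and VEH2. Fkbp5, which encodes a co-chaperone of this hormone's receptor, stood at 151, 36.9 and 135 CPM in COR1, COR2 and COR3, against 36.9, 177 and 35.4 CPM in VEH1, VEH2 and VEH3. Tsc22d3 and Per1 were likewise high in COR1, COR3 and VEH2 and low in COR2, VEH1 and VEH3. Across 14450 genes, each library was nearest to 1 other, in the pairs COR1 with VEH3, COR3 with COR2, and VEH2 with VEH1 (Pearson r across genes 0.9893 to 0.9912 within these pairs, and 0.9788 to 0.9864 between the other 12 combinations). Each pair thus held 1 library with more and 1 with less Fkbp5, and 2 of the pairs lay within 1 label. The nearest libraries still differed by more than sampling noise, so none was counted as a repeat of another. Chi-square per gene (1 for noise alone) was 17.0 for COR1 with VEH3, 19.4 for VEH2 with VEH1 and 35.1 for COR3 with COR2. The pair COR3 with COR2 thus lay near the other 12 combinations, which held 37.8 to 61.4. All values are therefore given by library, first by label and then by these pairs.

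The cultures carried muscle markers and almost no fat cell markers. The 6 skeletal muscle markers (Myog, Ckm, Acta1, Des, Ttn and Myh3) summed to 13720, 12780 and 11900 CPM in COR1, COR2 and COR3, against 8452, 9480 and 11940 CPM in VEH1, VEH2 and VEH3. By label, 5 of them had a positive log2 difference and Des a negative one (-0.04), and Acta1 alone did not overlap. Ttn gave 3564, 3195 and 1687 CPM in COR1, COR2 and COR3, against 787, 978 and 1897 CPM in VEH1, VEH2 and VEH3. Myog was highest in VEH3, at 864 CPM. Of the 6 adipocyte markers, Adipoq, Lep, Retn, Cfd and Cidec had 0 counts in all 6 libraries, and Plin1 reached at most 0.039 CPM. A count of 0 allows up to 3 counts, or 0.103 to 0.125 CPM in a library, for counting error only. The macrophage markers Ptprc and Adgre1 were also at 0, with all 5 macrophage markers together at 1.61 to 2.17 CPM in the libraries labelled corticosterone and 1.31 to 2.00 CPM in those labelled vehicle. The 5 endothelial markers together held 0.617 to 0.734 CPM with corticosterone and 0.551 to 0.742 CPM with vehicle. The 4 markers of proliferating myoblasts (Mki67, Top2a, Pax7 and Myf5) summed to 168.8 to 190.6 CPM with corticosterone and 186.2 to 206 CPM with vehicle. Of these, Top2a, which encodes a DNA topoisomerase of dividing cells, gave 57.7, 58.3 and 56.7 CPM in COR1, COR2 and COR3, against 74.7, 70.9 and 68.8 CPM in VEH1, VEH2 and VEH3, without overlap. Its log2 difference was -0.31 ± 0.07 (SE), with an adjusted p of 0.364 in edgeR and of 0.0398 in DESeq2, which called no other marker gene. The other markers of this list overlapped between the labels, with log2 differences of -0.29 for Mki67, 0.09 for Pax7 and 0.145 for Myf5.

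Levels were compared between genes per kilobase of annotated exon. Plin2, which coats lipid droplets in most cell types, came first at a mean of 28.9 CPM per kb over the 6 libraries, above 87.0% of the genes tested. Cebpb followed at 23.0, Cd36 at 16.7, Pnpla2 at 16.0 and Cebpa at 13.8 CPM per kb, and each of these overlapped the next in its range over the libraries. A step without overlap separated Cebpa (9.66 to 19.7) from Cebpd, which held 3.12 to 7.46 CPM per kb. Lpl had 4.80 and Lpin1 3.97 CPM per kb, overlapping each other and Cebpd. Pparg, at 1.92 CPM per kb, lay below them without overlap, and Fabp4, at 0.103, lay below Pparg and above only 1.79% of the genes tested. Exon lengths were the union over all annotated transcripts, 10478 bases for Lpl and 9665 for Lpin1, so a gene that uses a short form is placed too low. For Fabp4 the union was 4489 bases, the whole span of the gene, so its level per kb and its rank hold for that length only.

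**Figure D1:**
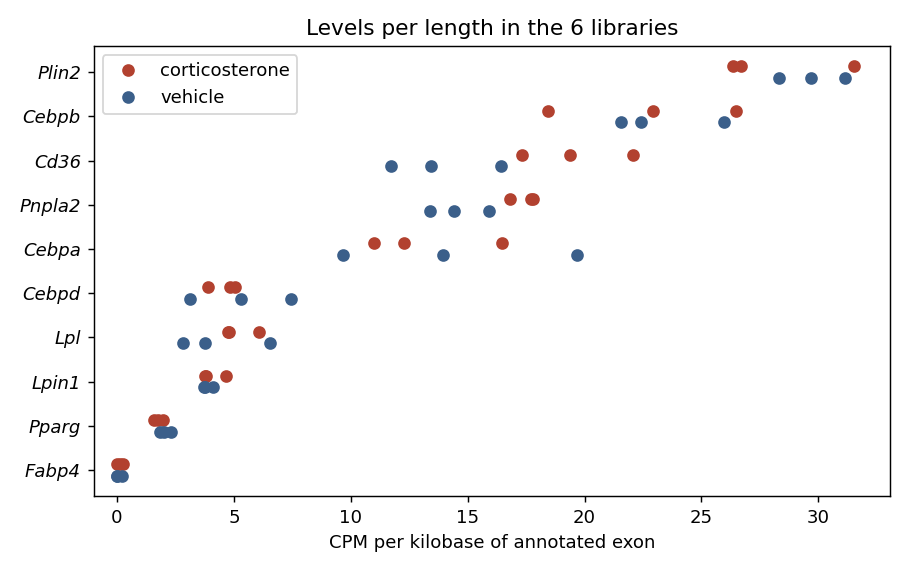
Levels of the 10 members in CPM per kilobase of annotated exon, 1 point per library, with corticosterone above vehicle in each row and the genes ordered by their mean. Plin2 to Cebpa lie between 9.66 and 31.5, Cebpd to Lpin1 between 2.85 and 7.46, and Pparg and Fabp4 at 2.30 or less in every library.

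Among the transcription factors, no member separated the labels. Cebpa and Cebpd were highest in VEH2, and Cebpb was highest in COR3. Cebpa (ENSMUSG00000034957, GRCm38 chr7:35119293-35121928), which in adipocytes maintains the differentiated state, gave 32.4, 29.0 and 43.4 CPM in COR1, COR2 and COR3, against 36.7, 51.8 and 25.5 CPM in VEH1, VEH2 and VEH3. VEH2 was the highest and VEH3 the lowest of the 6, a 2.03-fold range inside the vehicle label, and the groups overlapped. The mean was 34.9 ± 7.53 CPM with corticosterone and 38.0 ± 13.2 CPM with vehicle (SD, n = 3 each), and the log2 difference was -0.12 ± 0.26 (SE; adjusted p = 0.861 in edgeR). Without VEH2 the difference changed sign, to 0.17.

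Cebpb (ENSMUSG00000056501, chr2:167688915-167690418), the early factor of adipogenesis, gave 34.5, 27.7 and 39.8 CPM in COR1, COR2 and COR3, against 33.7, 39.1 and 32.4 CPM in VEH1, VEH2 and VEH3. COR2 was the lowest library and COR3 the highest, both under the corticosterone label. The log2 difference was -0.045 ± 0.14 (SE, edgeR adjusted p = 0.91), and it changed sign without COR2 (0.08) or without VEH2 (0.039). Cebpd (ENSMUSG00000071637, chr16:15887286-15891031), its partner in the early phase, gave 14.6, 18.1 and 19.0 CPM in COR1, COR2 and COR3, against 19.9, 28.0 and 11.7 CPM in VEH1, VEH2 and VEH3. Its range of 2.39-fold was the widest of the members other than Fabp4, and both ends lay in the vehicle label. Its log2 difference was -0.21 ± 0.29 (SE, edgeR adjusted p = 0.782), turning to 0.12 without VEH2.

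Genes on the opposite strand may add reads to the counts of the C/EBP genes or take reads from them. Neither the strand setting nor the handling of shared bases is stated. Cebpd shares 562 exonic bases with Spidr, a DNA repair gene, which stood at 12.01, 16.3 and 13.9 CPM in COR1, COR2 and COR3, against 15.4, 14.1 and 13.9 CPM in VEH1, VEH2 and VEH3. Cebpb shares 312 exonic bases with Tmem189, at 64.4 to 77.7 CPM with corticosterone and 78.15 to 84.2 CPM with vehicle. Cebpa shares 51 exonic bases with the antisense transcript Gm45091. Spidr was highest in COR2 and Cebpd in VEH2. Tmem189 was highest in VEH3 and lowest in COR3, the library where Cebpb was highest. What either gene adds to or takes from the C/EBP values was not tested.

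The start regions of Cebpa and Cebpb are shown because these genes lay together in the pairs of libraries described further on, with those of Cd36, which did not overlap between the labels, and Lpin1, which ran the other way within the pairs. Each is 250 bases before to 50 bases after the RefSeq gene start (GRCm38.p6), 5′ to 3′ on the gene's own strand. For Cd36 this start lies inside the annotated gene, which reaches chr5:17888801, and is not its outermost start. Capitals mark matches, on either strand, to the usual TATA box, whose letters are TATAAA, to the box named CCAAT for its letters, and to the hexamer bound by the glucocorticoid receptor, written AGAACA.
Cebpa, chr7:35119043-35119342, plus strand: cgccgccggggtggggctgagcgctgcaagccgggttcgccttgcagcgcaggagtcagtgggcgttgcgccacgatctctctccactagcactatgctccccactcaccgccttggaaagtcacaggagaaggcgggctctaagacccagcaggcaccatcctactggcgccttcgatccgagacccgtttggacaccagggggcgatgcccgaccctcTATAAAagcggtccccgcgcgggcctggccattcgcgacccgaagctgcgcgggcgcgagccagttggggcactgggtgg
Cebpb, chr2:167688665-167688964, plus strand: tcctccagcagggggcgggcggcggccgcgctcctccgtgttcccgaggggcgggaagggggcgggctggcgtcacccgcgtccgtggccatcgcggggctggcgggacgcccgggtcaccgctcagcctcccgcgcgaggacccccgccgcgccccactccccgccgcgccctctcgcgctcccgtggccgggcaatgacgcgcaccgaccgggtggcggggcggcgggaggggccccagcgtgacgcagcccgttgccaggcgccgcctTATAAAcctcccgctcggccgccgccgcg
Cd36, chr5:17835847-17836146, minus strand: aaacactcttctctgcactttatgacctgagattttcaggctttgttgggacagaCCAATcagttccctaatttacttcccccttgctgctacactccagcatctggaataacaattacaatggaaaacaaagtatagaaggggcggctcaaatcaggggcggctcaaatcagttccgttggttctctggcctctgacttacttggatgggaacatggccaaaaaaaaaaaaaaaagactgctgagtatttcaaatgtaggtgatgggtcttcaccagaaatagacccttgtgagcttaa
Lpin1, chr12:16610917-16611216, minus strand: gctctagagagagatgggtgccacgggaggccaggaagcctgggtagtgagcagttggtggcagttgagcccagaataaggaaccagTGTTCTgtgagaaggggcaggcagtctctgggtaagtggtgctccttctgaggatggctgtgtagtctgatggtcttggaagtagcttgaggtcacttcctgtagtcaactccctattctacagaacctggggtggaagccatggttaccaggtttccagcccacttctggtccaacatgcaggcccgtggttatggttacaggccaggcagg
Of the 10 members, 7 had a window in the RefSeq table, with 3 for Pparg and 1 for each of Cebpa, Cebpb, Cd36, Plin2, Lpin1 and Pnpla2. Positions count the first base of the gene as 1 and the base before it as -1. The letters TATAAA, which 13.6% of all 32851 windows held, began at -30 in Cebpa. In Cebpb they began at 22, which is after the start. The same letters were found on the opposite strand of the second Pparg window, beginning at -29. The hexamer AGAACA, held by 19.0% of all windows, was found among the members only in Lpin1, and the full glucocorticoid receptor palindrome (0.00913% of windows) and the PPAR-RXR direct repeat (0.0396%), searched on both strands, in none of the 9 member windows. The C/EBP letters TTGCNNAA, in 10.8% of windows, were found among the members only in Pparg, beginning at -215 and -16 from its most downstream start. CCAAT, in 37.4% of windows, was found in Cd36, Plin2 and Pparg, and the E-box CACGTG, in 7.15%, in Plin2. These are matches of letters, and no match says only that the letters are not in that window.

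Pparg (ENSMUSG00000000440, chr6:115360951-115490399), the receptor that drives fat cell differentiation, was low and varied little. It gave 5.80, 4.73 and 5.23 CPM in COR1, COR2 and COR3, against 6.80, 5.93 and 5.47 CPM in VEH1, VEH2 and VEH3. The groups overlapped, with VEH1 highest and COR2 lowest. The mean was 5.25 ± 0.54 CPM with corticosterone and 6.07 ± 0.68 CPM with vehicle (SD, n = 3 each), and the log2 difference was -0.21 ± 0.16 (SE; adjusted p = 0.61 in edgeR) with a 95% interval of -0.58 to 0.16. It was -0.13 without VEH1 and -0.14 without COR2.

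Of the 3 uptake genes, Cd36 separated the labels and Lpl and Fabp4 did not. Cd36 (ENSMUSG00000002944, chr5:17781690-17888801), a membrane receptor that takes up long-chain fatty acids, gave 69.5, 62.1 and 79.2 CPM in COR1, COR2 and COR3, against 42.1, 48.2 and 59.0 CPM in VEH1, VEH2 and VEH3. Every library labelled corticosterone lay above every library labelled vehicle, by 62.1 against 59.0 CPM at the closest. The mean was 70.3 ± 8.58 CPM with corticosterone and 49.8 ± 8.58 CPM with vehicle (SD, n = 3 each), a 1.41-fold level and a log2 difference of 0.50 ± 0.14 (SE, 95% interval 0.17 to 0.83). It did not pass the test over all genes (edgeR adjusted p = 0.364, DESeq2 adjusted p = 0.109, and 0.0822 to 0.93 over all the alternatives). The sum of the muscle markers was also higher in 2 of the 3 libraries labelled corticosterone than in every library labelled vehicle (13720 and 12780 against 8452, 9480 and 11940 CPM). The single markers did not all share this order, Des having a log2 difference of -0.04. Fewer cells of a type and less RNA per cell cannot be told apart in these cultures, and the part of muscle marker content, or of the Top2a difference, in that of Cd36 was not tested.

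Lpl (ENSMUSG00000015568, chr8:68880491-68907448), which encodes the lipase that frees fatty acids from lipoproteins, gave 50.1, 49.8 and 63.6 CPM in COR1, COR2 and COR3, against 39.7, 68.8 and 29.8 CPM in VEH1, VEH2 and VEH3. VEH2 was the highest library and VEH3 the lowest, so the vehicle label spanned all of the corticosterone values. The mean was 54.5 ± 7.84 CPM with corticosterone and 46.1 ± 20.3 CPM with vehicle (SD, n = 3 each). The log2 difference was 0.24 ± 0.28 (SE; adjusted p = 0.738 in edgeR), and it was -0.003 without VEH3 and 0.65 without VEH2.

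Fabp4 (ENSMUSG00000062515, chr3:10204088-10208576), the fatty acid carrier of fat cells, was near the floor of detection, with 15, 3 and 28 counts in COR1, COR2 and COR3, against 0, 29 and 1 counts in VEH1, VEH2 and VEH3. Scaled, they came to 0.524, 0.103 and 1.10 CPM with corticosterone and 0, 1.00 and 0.042 CPM with vehicle. The libraries COR1, COR3 and VEH2 held nearly all of its counts, and the gene passed the filter on low counts through those libraries alone. By label its log2 difference was 0.62 ± 1.19 (SE, edgeR adjusted p = 0.848), with a 95% interval of -2.16 to 3.40 and a sign that turned to -0.22 without COR3.

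**Figure D2:**
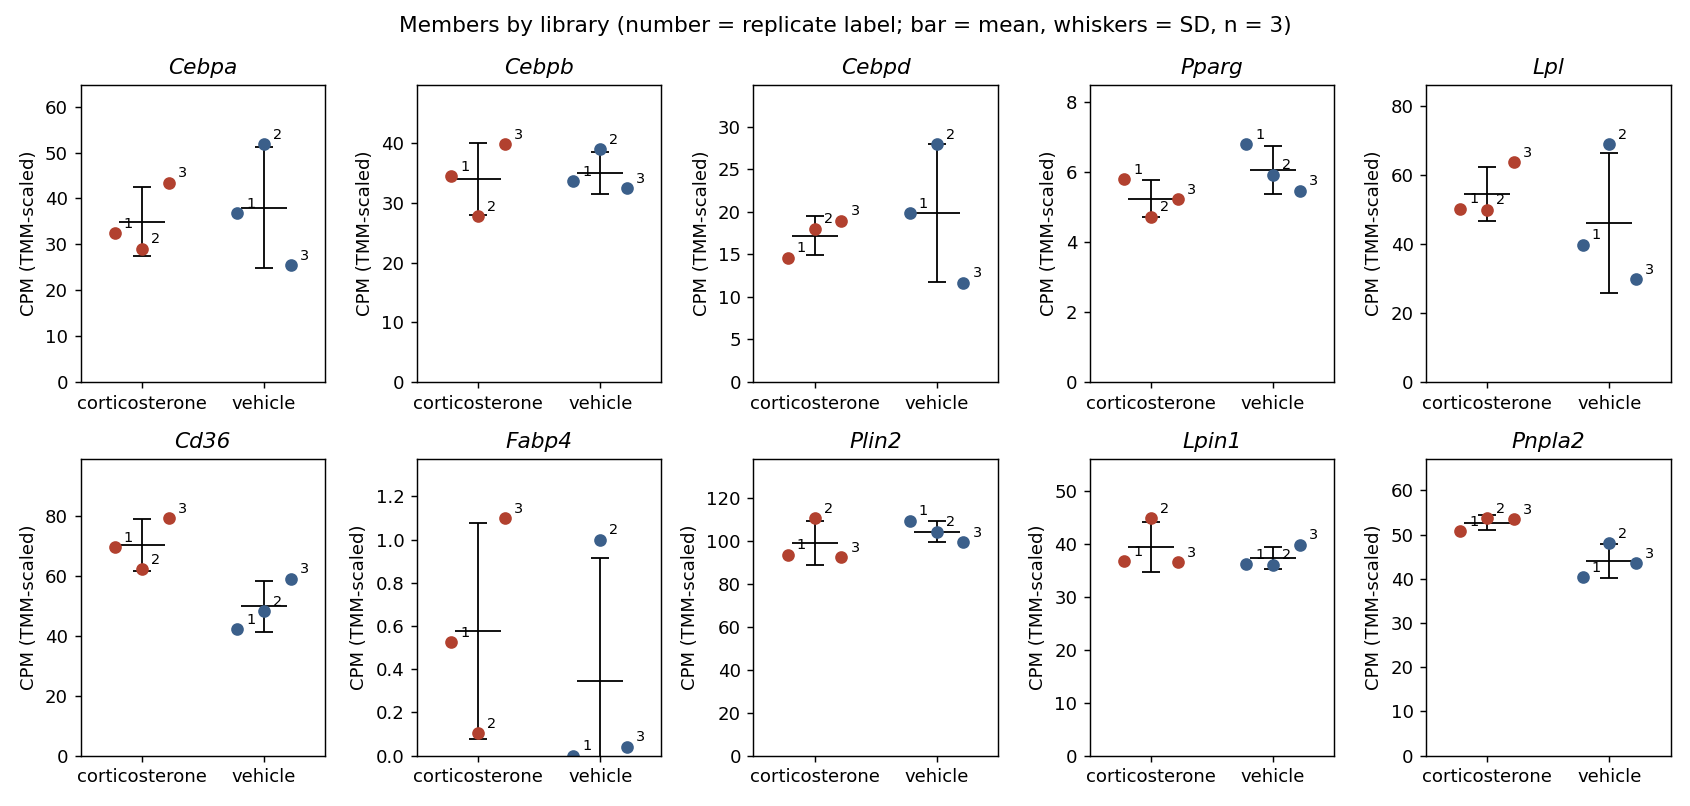
TMM-scaled CPM of each member by label, 1 point per library numbered by replicate, with the mean as a bar and the SD as whiskers (n = 3), and each axis from 0. Cd36 (62.1 to 79.2 CPM with corticosterone, 42.1 to 59.0 CPM with vehicle) and Pnpla2 (50.7 to 53.7 CPM with corticosterone, 40.4 to 48.1 CPM with vehicle) do not overlap between the labels; the other 8 do.

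The droplet and triglyceride genes varied least. Plin2 (ENSMUSG00000028494, chr4:86648386-86670060) gave 93.7, 110.7 and 92.5 CPM in COR1, COR2 and COR3, against 109.4, 104.3 and 99.4 CPM in VEH1, VEH2 and VEH3, a 1.20-fold range over all 6 libraries. COR2 was the highest and COR3 the lowest. Its log2 difference was -0.08 ± 0.09 (SE, edgeR adjusted p = 0.741, 95% interval -0.29 to 0.14), and it was -0.16 without COR2 and -0.031 without COR3. Lpin1 (ENSMUSG00000020593, chr12:16535669-16610966), a phosphatidate phosphatase of triglyceride synthesis, gave 36.8, 44.9 and 36.6 CPM in COR1, COR2 and COR3, against 36.2, 36.1 and 39.8 CPM in VEH1, VEH2 and VEH3. COR2 stood highest, and 4 of the libraries lay between 36.1 and 36.8 CPM. Its log2 difference was 0.08 ± 0.10 (SE, edgeR adjusted p = 0.773, 95% interval -0.16 to 0.32), and -0.027 without COR2.

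Pnpla2 (ENSMUSG00000025509, chr7:141455198-141460743) encodes the lipase that starts the breakdown of stored triglyceride. It gave 50.7, 53.7 and 53.5 CPM in COR1, COR2 and COR3, against 40.4, 48.1 and 43.5 CPM in VEH1, VEH2 and VEH3, with no overlap between the labels. The mean was 52.7 ± 1.70 CPM with corticosterone and 44.0 ± 3.84 CPM with vehicle (SD, n = 3 each), a 1.20-fold level and a log2 difference of 0.26 ± 0.08 (SE, 95% interval 0.06 to 0.46). It did not pass over all genes (edgeR adjusted p = 0.364, DESeq2 adjusted p = 0.282, and 0.223 to 0.93 over all the alternatives). The part of muscle marker content and of Top2a, both given above by library, in the Pnpla2 difference was not tested.

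By label, then, none of the 10 members was called. All 10 passed the filter on low counts, and 0 passed edgeR's quasi-likelihood test at an adjusted p of 0.05, as did 0 (0%) of the 14450 genes tested. At an unadjusted p under 0.05 there were 2 members, Cd36 and Pnpla2, where 11.8% of all genes lay under it. DESeq2, which called 138 genes (0.955%), and limma-voom, which called 0 (0%), called 0 members each. The same 2 members were without overlap of CPM between the labels, both higher with corticosterone, beside 8.41% of all genes higher and 16.6% in either direction. With library totals in place of TMM both stayed apart, beside 5.48% and 17.3%. The median log2 difference was 0.02 over the members, 5 higher and 5 lower, and 0.004 over all genes.

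**Figure D3:**
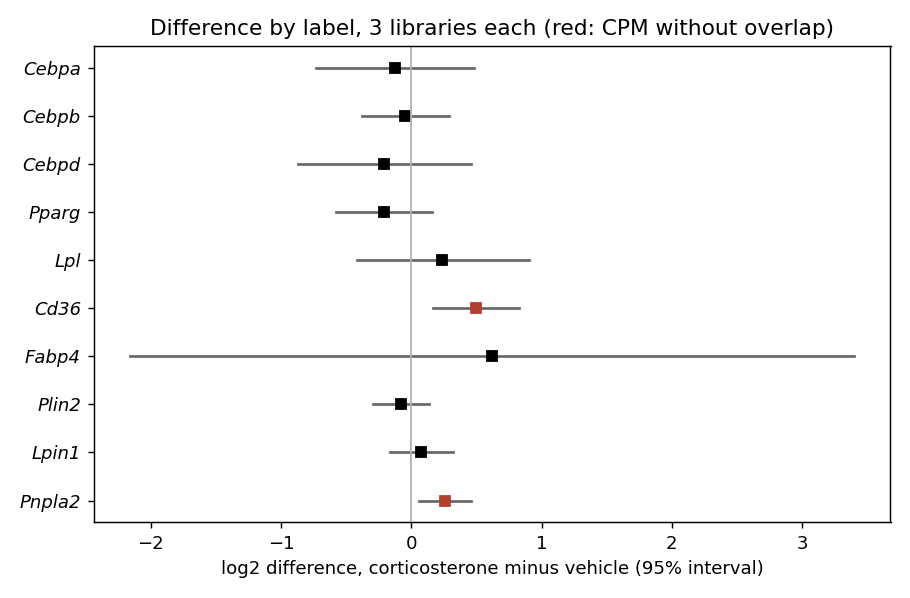
Log2 difference of each member, corticosterone minus vehicle, with its 95% interval from edgeR (3 libraries per label); red squares mark the members whose CPM does not overlap. The intervals of Cd36 (0.17 to 0.83) and Pnpla2 (0.06 to 0.46) lie above 0 and the other 8 span it; none passed the adjustment over all genes.

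Read by the level of Fkbp5 instead, with COR1, COR3 and VEH2 set beside COR2, VEH1 and VEH3, other members stood apart. These sets come from values of glucocorticoid genes in the same libraries and are not treatment groups, so the values are described without a mean, a fold or a test. Cebpb was 34.5, 39.8 and 39.1 CPM in COR1, COR3 and VEH2, and 27.7, 33.7 and 32.4 CPM in COR2, VEH1 and VEH3. Lpl was 50.1, 63.6 and 68.8 CPM in COR1, COR3 and VEH2, and 49.8, 39.7 and 29.8 CPM in COR2, VEH1 and VEH3, so that COR1 and COR2 all but met. Fabp4 held 15, 28 and 29 counts in COR1, COR3 and VEH2, and 3, 0 and 1 counts in COR2, VEH1 and VEH3. These 3 members did not overlap and lay higher with more Fkbp5 under TMM scaling, beside 4.89% of all genes higher and 9.63% in either direction. With library totals alone (4.6% and 9.58% of all genes), Lpl and Fabp4 still lay higher, but Cebpb overlapped, at 34.0 CPM in COR1 and 34.6 in VEH1, and Lpin1 lay lower without overlap, at most 36.7 CPM in the libraries with more Fkbp5 and at least 37.2 in those with less. Since Fabp4 passed the filter through these same libraries, its separation follows in part from the filter.

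Within the pairs of nearest libraries, 6 of the 10 members were higher in the library with more Fkbp5 in 3 of 3 pairs, and 2 were lower in 3 of 3, beside 20% and 20.5% of all genes. Those higher were Cebpa, Cebpb, Cebpd, Lpl, Cd36 and Fabp4. Several of them moved together over the 6 libraries, so they are not 6 separate observations. Pearson's r with Cebpa was 0.803 for Cebpb, 0.884 for Cebpd, 0.824 for Lpl and 0.686 for Fabp4, but -0.178 for Cd36. Fabp4 passed the filter on low counts only through the libraries with more Fkbp5, so its place in this count follows in part from the filter. Cebpa stood at 32.4 CPM in COR1 and 25.5 in VEH3, at 43.4 in COR3 and 29.0 in COR2, and at 51.8 in VEH2 and 36.7 in VEH1. The levels of the pairs differed so much that Cebpa overlapped between the sets, yet every pair ran the same way. Cebpd stood at 14.6 CPM in COR1 and 11.7 in VEH3, at 19.0 in COR3 and 18.1 in COR2, and at 28.0 in VEH2 and 19.9 in VEH1. Its step within COR3 and COR2 was small beside the others. Cd36 also ran this way, with 69.5 CPM in COR1 and 59.0 in VEH3, 79.2 in COR3 and 62.1 in COR2, and 48.2 in VEH2 and 42.1 in VEH1. The pair VEH2 and VEH1 was lowest for Cd36 and highest for Cebpa and Cebpd.

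Plin2 and Lpin1 were the members lower with more Fkbp5 in every pair. Plin2 stood at 93.7 CPM in COR1 and 99.4 in VEH3, at 92.5 in COR3 and 110.7 in COR2, and at 104.3 in VEH2 and 109.4 in VEH1. Lpin1 stood at 36.8 CPM in COR1 and 39.8 in VEH3, at 36.6 in COR3 and 44.9 in COR2, and at 36.1 in VEH2 and 36.2 in VEH1, the last pair being level. Pparg and Pnpla2 were higher in 2 pairs and lower in 1. For Pnpla2 the exception, COR3 with 53.5 and COR2 with 53.7 CPM, was a near tie, and with library totals alone Pnpla2 too was higher in 3 of 3 pairs.

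**Figure D4:**
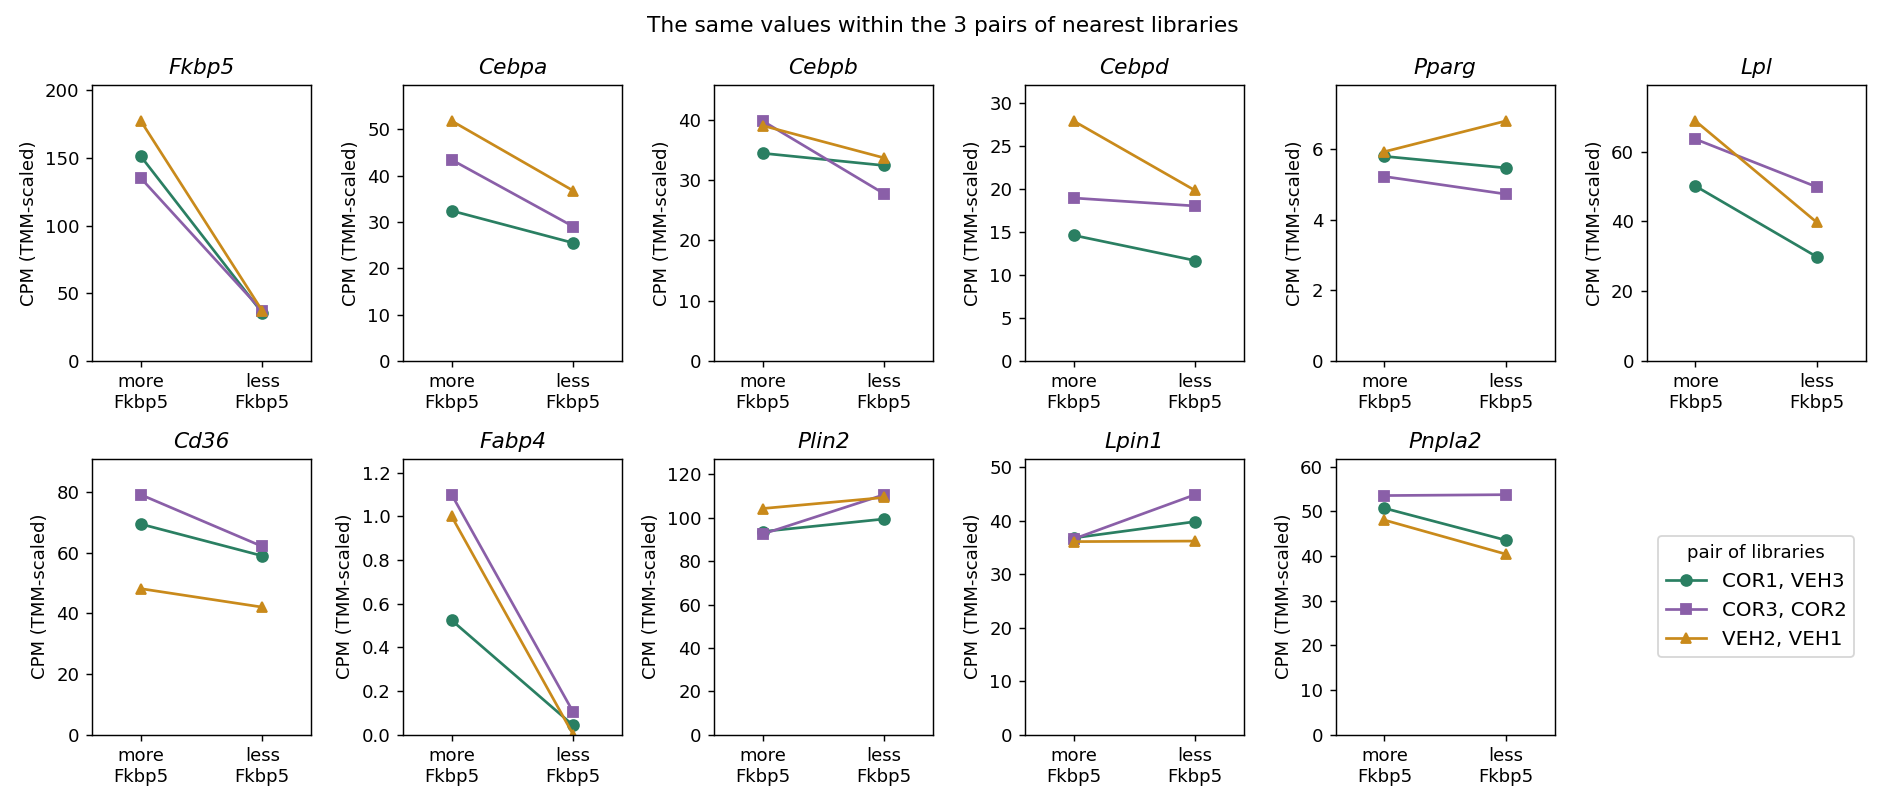
TMM-scaled CPM of Fkbp5 and the 10 members within the 3 pairs of nearest libraries, the library with more Fkbp5 at the left of each line and axes from 0. Lines fall to the right in all 3 pairs for Cebpa, Cebpb, Cebpd, Lpl, Cd36 and Fabp4 and climb for Plin2 and Lpin1. Fabp4 passed the filter on low counts only through the libraries at the left. Fkbp5, which ordered each pair, is 135 to 177 CPM at the left and 35.4 to 36.9 CPM at the right.

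The genes whose log2 CPM followed each member most closely over the 6 libraries were found among 10639 others with a mean of at least 5 CPM (10640 for Fabp4). The 6 libraries form the 3 pairs above, so a close match is a description alone (Pearson's r from 0.9715 for the loosest to 0.9992 for the closest of the 20 matches). Cebpa was nearest to Il11ra1 and Masp1, Cebpb to Snrpa and Rexo2, Cebpd to Sri and 1110012L19Rik, and Pparg to Rrm2b and Alg3. Lpl was nearest to 9430020K01Rik and Rap2a, Cd36 to Ppid and Lmna, Fabp4 to Tmem186 and Bcl2l1, Plin2 to Hs1bp3 and Cpne3, Lpin1 to Ap5z1 and Mapkbp1, and Pnpla2 to Kdm4c and Zscan29. No member was the nearest gene of another, and the loosest matches were those of Cebpb.

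The other genes of the pathway were read from 4 lists, and 0 of the 55 genes tested in them passed by label. Of these 55, 8 did not overlap between the labels, 5 higher and 3 lower with corticosterone, beside 16.6% of all genes, a share close to theirs. Of 21 adipogenic regulators tested, 13 had a positive and 8 a negative log2 difference, the median being 0.03. The corepressor gene Ncor1, among those with the highest CPM, stood at 200 ± 18.7 CPM with corticosterone and 200.2 ± 6.69 CPM with vehicle (SD, n = 3 each). Fatty acid uptake and activation had 8 of 15 higher (median 0.05), led by the lipoprotein receptor gene Lrp1 at 1206 ± 445 CPM with corticosterone and 895 ± 99.7 CPM with vehicle and the acyl-CoA synthetase gene Acsl3 at 313 ± 14.7 CPM with corticosterone and 325 ± 70.6 CPM with vehicle. Triglyceride synthesis and droplet proteins had 10 of 14 higher (median 0.08), led by the acyltransferase genes Agpat3, at 263 ± 20.5 CPM with corticosterone and 246 ± 18.4 CPM with vehicle, and Gpat4, at 114 ± 4.92 CPM with corticosterone and 112 ± 2.37 CPM with vehicle. Lipolysis had 2 of 5 higher (median -0.008), led by the lysosomal lipase gene Lipa at 68.8 ± 9.98 CPM with corticosterone and 68.4 ± 7.93 CPM with vehicle and by the lipase inhibitor gene G0s2 at 41.2 ± 16.3 CPM with corticosterone and 55.1 ± 18.9 CPM with vehicle. The medians stood beside 0.004 over all genes tested.

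A few relatives of the members were chosen after their values were seen. Plin4, a perilipin like Plin2, gave 4.44, 3.91 and 7.43 CPM in COR1, COR2 and COR3, against 1.80, 3.52 and 1.96 CPM in VEH1, VEH2 and VEH3, without overlap (log2 difference 1.10 ± 0.35, SE, edgeR adjusted p = 0.364). Plin3, another perilipin, was at 102 ± 1.71 CPM with corticosterone and 100.5 ± 5.00 CPM with vehicle (SD, n = 3 each). Lpin2 and Lpin3, the other lipins, ran in opposite directions without overlap, Lpin2 at 48.0 ± 3.52 CPM with corticosterone and 57.0 ± 0.43 CPM with vehicle, and Lpin3 at 72.1 ± 3.90 CPM with corticosterone and 58.8 ± 6.16 CPM with vehicle (SD, n = 3 each, edgeR adjusted p = 0.364 for both). Fabp3, the fatty acid carrier of muscle, gave 37.6, 14.8 and 17.2 CPM in COR1, COR2 and COR3, against 30.4, 33.5 and 30.1 CPM in VEH1, VEH2 and VEH3. Its log2 difference was -0.43 ± 0.32 (SE, edgeR adjusted p = 0.606), and without COR1 it was -0.97 (edgeR adjusted p = 0.0442), the 1 call in these lists under any alternative.

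By the level of Fkbp5, 7 of the 55 list genes tested (12.7%) did not overlap, beside 9.63% of all genes. Of these 7, 3 lay higher with more Fkbp5, or 5.45% of the list genes beside 4.89% of all genes. Both shares are near those of all genes, so the genes below are a description alone. Ncoa1, a nuclear receptor coactivator gene, gave 47.5, 40.9 and 36.5 CPM in COR1, COR3 and VEH2, and 35.7, 32.5 and 34.7 CPM in COR2, VEH1 and VEH3. Fabp5, a carrier related to Fabp4, gave 6.63, 5.66 and 7.24 CPM in COR1, COR3 and VEH2, and 2.50, 5.59 and 4.01 CPM in COR2, VEH1 and VEH3. Dgat2, whose product completes triglyceride synthesis, gave 9.12, 8.25 and 6.79 CPM in COR1, COR3 and VEH2, and 4.86, 4.93 and 5.22 CPM in COR2, VEH1 and VEH3. The narrowest of these gaps was that of Fabp5, between COR3 and VEH1, and it closed with library totals alone (5.58 CPM in COR3 and 5.74 in VEH1).

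The other 4 lay lower with more Fkbp5. Cebpg, a further C/EBP gene, gave 34.4, 35.7 and 36.7 CPM in COR1, COR3 and VEH2, and 40.9, 40.9 and 42.9 CPM in COR2, VEH1 and VEH3, on the opposite side from Cebpb. Nr1h2, an oxysterol receptor gene, gave 63.2, 61.8 and 63.6 CPM in COR1, COR3 and VEH2, and 73.0, 64.1 and 68.6 CPM in COR2, VEH1 and VEH3. Acsl3 gave 317, 297 and 247 CPM in COR1, COR3 and VEH2, and 326, 346 and 383 CPM in COR2, VEH1 and VEH3. G0s2, which restrains the lipase encoded by Pnpla2, held 27.7, 36.5 and 38.0 CPM in COR1, COR3 and VEH2, and 59.3, 75.3 and 51.9 CPM in COR2, VEH1 and VEH3, while Pnpla2 itself overlapped.

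**Figure D5:**
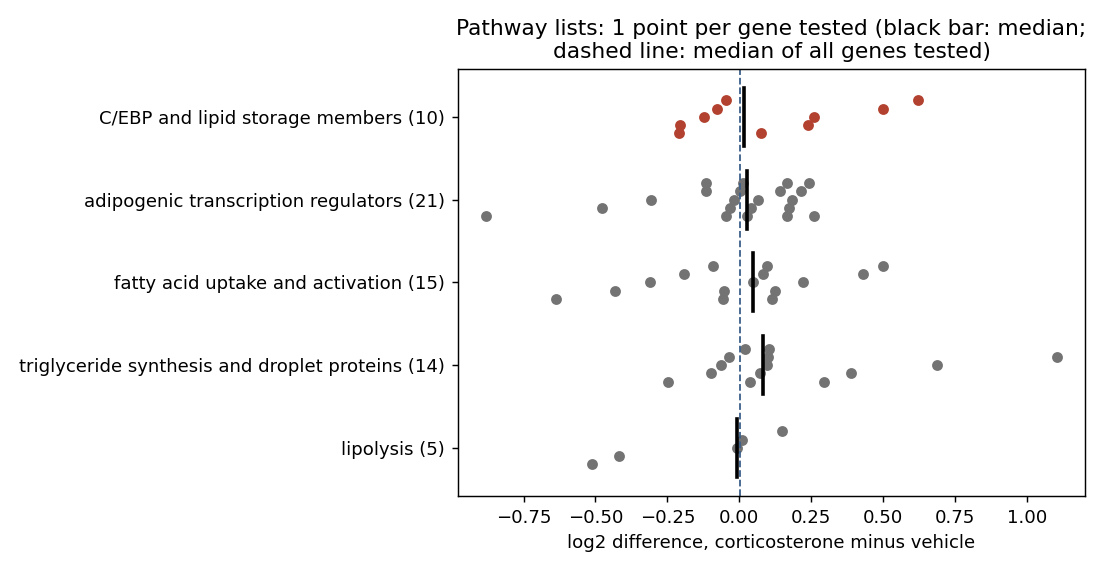
Log2 difference, corticosterone minus vehicle, of the 10 members (red) and of the genes tested in 4 pathway lists (grey, number tested in brackets), with each median as a black bar and the median of all genes tested (0.004) as a dashed line. The medians lie between -0.008 and 0.08, and single genes spread to both sides of 0 in every list.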

How the data were processed

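The authors deposited raw read counts per gene for 6 libraries, and every column was mapped to a sample. Build mm10, the aligner HISAT2 (2.0.5), HTSeq (0.6.1) and DESeq2 (1.24.0) are listed in the submitters' processing notes, without settings. No source used here gives the annotation release, strand setting or filters. Gene positions and union exon lengths came from GENCODE M21 (GRCm38) and promoter windows from RefSeq (GRCm38.p6).

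Counts were used as deposited. Genes kept by filterByExpr (14450 of 46983) were scaled by TMM and tested with the quasi-likelihood F-test of edgeR 4.0.16 in R 4.3.3, two-sided, with Benjamini-Hochberg adjustment over all of them and a threshold of 0.05. Fold changes are corticosterone over vehicle, and p-values rest on the spread between these libraries. The fit takes the libraries of a label as independent. Its p-values, SEs and intervals do not allow for the near pairs COR3 with COR2 and VEH2 with VEH1, each within a label. The fit was tested on simulated data, drawn as independent libraries without the near pairs seen here. DESeq2 1.42.0, limma-voom (limma 3.58.1), other scalings and filters, a replicate block and each library left out were alternatives.

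The members, the lists and the second order of the libraries were chosen with earlier results of these data known. All members were named; in each list, genes called by the test or else the 2 with the highest mean CPM, and genes without overlap by Fkbp5 level. A list gene that this rule names is not reported here. Pairs of nearest libraries were described after the data were seen. Likeness was Pearson's r of log2 CPM (prior count 2).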

Additional observations from a re-analysis of the deposited data

How the results depend on the processing

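The count of genes called by label was 0, and it was 138 by DESeq2 (68 higher, 70 lower) and 0 to 29 with 1 library left out, where 29 came without the library labelled corticosterone replicate 1 and 11 without that labelled vehicle replicate 3; limma-voom, the other scalings and both other filters gave 0. Members called stayed at 0 under every alternative run, and genes called in the pathway lists ran from 0 to 1 with 1 library left out. Of 139 refitted differences of members, 132 kept their direction and stayed uncalled and 7 changed sign, all with 1 library left out. Over the libraries left out, the log2 difference ran from -0.352 to 0.165 for Cebpa, -0.173 to 0.083 for Cebpb, -0.484 to 0.124 for Cebpd, -0.003 to 0.647 for Lpl, -0.219 to 4.516 for Fabp4 and -0.027 to 0.128 for Lpin1, each changing sign, and without a change of sign from -0.287 to -0.127 for Pparg, -0.165 to -0.031 for Plin2, 0.384 to 0.629 for Cd36 and 0.193 to 0.326 for Pnpla2. Fabp4 was under the stricter filter of 1 CPM in 3 libraries, and gave 1.92 by limma-voom beside 0.62 in edgeR. Scaling by library totals alone moved the median of all genes to -0.044 and left Cd36 and Pnpla2 without overlap by label; by Fkbp5 level 3 members were again without overlap, but 2 lay higher and 1 lower, Cebpb overlapping and Lpin1 standing apart. In comparisons by library totals that were added after the data were seen, 7 members in place of 6 were higher in 3 of 3 pairs and 2 again lower, and of the list genes 9 in place of 8 were without overlap by label and 7 again by Fkbp5 level, with Ncor1 in place of Fabp5. Same-numbered libraries did not deviate together (r = -0.153, -0.266 and -0.325 across genes for numbers 1, 2 and 3), so the numbers are not taken to pair them, and the fit with the replicate block called 0 genes, 0 members and 0 list genes. The causes were not tested. Depth limits Fabp4, with at most 29 counts in a library; the other members had at least 131.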
